A study of Mus musculus with 9 samples.

Results

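Keratins, regulators and products of the ocular surface epithelium were followed in the front of the eye of newborn mice. The 10 genes are the type II keratin gene Krt5, the type I keratin genes Krt12, Krt14, Krt15 and Krt19, the transcription factor genes Trp63, Ehf and Klf5, the adhesion gene Cdh1 and the enzyme gene Aldh3a1. They were chosen by symbol, and all 10 were found among the 35275 rows of the count table and had enough counts to be tested. RNA had been sequenced in bulk at postnatal day 0 from the dissected front of the eye without its lens, that is cornea, iris, ciliary body and drainage structures. The 3 wildtype samples were Col4a1+/+ and the 6 mutant samples Col4a1+/G1344D, heterozygous for a missense change in Col4a1, which encodes a chain of the type IV collagen of basement membranes. Each sample pooled 4 eyes from 2 mice, with no further treatment, strain or batch in the labels, so p-values measure the spread between pools. In such bulk tissue, fewer epithelial cells and less RNA per epithelial cell cannot be told apart.

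Keratins form the intermediate filaments of epithelial cells as pairs of a type I and a type II chain. Basal cells of stratified epithelia make keratin 5 with keratin 14 or 15, the differentiating corneal epithelium makes keratin 12, and keratin 19 is found in simple and ocular surface epithelia. The transcription factor p63, the product of Trp63, keeps basal cells of stratified epithelia able to divide. Ehf, an ETS factor, and Klf5, a Kruppel-like factor, act in epithelial differentiation and growth. E-cadherin, the product of Cdh1, joins epithelial cells to each other, and Aldh3a1 encodes an aldehyde dehydrogenase that is a major soluble protein of the adult corneal epithelium.

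The libraries held between 25995340 and 35306935 counts, of which the 10 genes took between 0.731% and 0.902% in wildtype and between 0.707% and 0.856% in mutant libraries. Markers of the dissected tissue were present in the wildtype libraries, with the keratocyte gene Lum at 3036 ± 492 CPM (SD, n = 3) and the pigment cell gene Pmel at 8343 ± 189 CPM. Of 13 lens markers, 8 had enough counts to be tested, and the list summed to between 257 and 262 CPM in wildtype libraries. Cryga and Lim2 of that list had 0 counts in all 9 libraries, where 3 counts correspond to between 0.0844 and 0.112 CPM. The libraries fell on both sides of 1% of counts on Gm42418, a gene that overlaps ribosomal RNA: wildtype 1 and mutants 1, 3, 4, 5 and 6 lay above it and wildtype 2 and 3 and mutant 2 below it. Differences given by side thus rest on wildtype 1 as the only wildtype library above the split. Below it they rest on mutant 2 as the only mutant library. Col4a1 itself stood at 625 ± 92.7 CPM in wildtype and 1030 ± 82.7 CPM in mutant libraries, but a missense change leaves its RNA in place, so this does not check the labels.

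Of the 10 genes, 3 rose in the mutant, 1 fell and 6 did not pass the test (edgeR quasi-likelihood test, adjusted p under 0.05 over 15825 genes). The genes that rose were the regulators Trp63, Ehf and Klf5, by 1.26-fold, 1.26-fold and 1.37-fold, and the gene that fell was Aldh3a1, 1.38-fold lower. None of the 5 keratin genes passed the test, and DESeq2 and limma-voom called none either. An unadjusted edgeR p under 0.05 was met by 0 of them and by 5383 of all 15825 tested genes. Over all tested genes 19.2% were called, 9.7% higher and 9.47% lower, so 4 of 10 is to be read against that background. The median log2 fold change of the 10 genes was -0.01, against -0.00 over all tested genes. The groups did not overlap for 1 of the 10 genes, Ehf, and for 22% of all tested genes. These calls changed when single wildtype libraries were left out, as did the calls over all tested genes (1535 higher and 1499 lower in the fit reported). Without wildtype 1, 0 of the 10 genes were called in either direction (edgeR), against 303 higher and 235 lower over all tested genes. An unadjusted p under 0.05 was then met by 4 of the 10, 2 in each direction, with 1 keratin gene among the 2 lower. For the genes called in the fit reported, the log2 fold changes were 0.21, 0.28 and 0.34 for Trp63, Ehf and Klf5 and -0.44 for Aldh3a1. Without wildtype 3, 0 were called higher and 1 lower, against 849 and 820 over all tested genes. At an unadjusted p under 0.05, 4 and 1 of the 10 passed. Counts at an unadjusted p were not made over all tested genes in either of these fits. The log2 fold changes were then 0.30, 0.31, 0.41 and -0.56 in the same order.

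**Figure D1:**
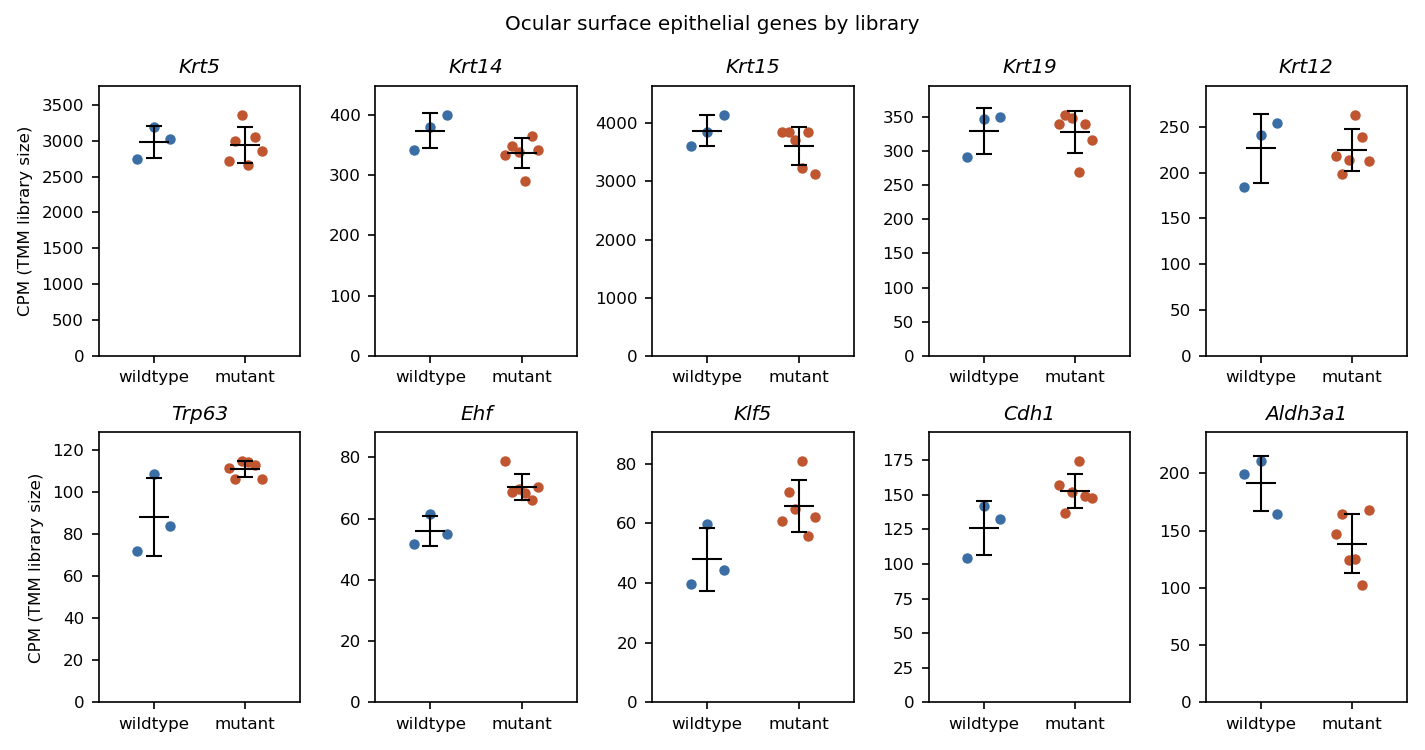
Normalised read counts (CPM on TMM library sizes, vertical axes from 0) of the 10 genes in each library. Points are libraries (3 wildtype, 6 mutant), the horizontal mark is the group mean and the bar its SD; the keratins overlap between the groups, while all 6 mutant libraries lie above all 3 wildtype libraries for Ehf.

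The upstream sequences of a basal and a cornea-type keratin are shown because Trp63, Ehf and Klf5 encode DNA-binding factors and these are the keratins they can be read beside. RefSeq's table (build GRCm38.p6) held an entry for 3 of the 10 genes, Krt5, Krt12 and Krt14. The Krt14 window lies 1518 bases inside the gene as GENCODE annotates it and is not printed. The windows cover the 250 bases before the RefSeq start, on the minus strand for both genes, with matches to the searched motifs in capitals, chr15:101712906-101713155 for Krt5 and chr11:99422260-99422509 for Krt12.
Krt5: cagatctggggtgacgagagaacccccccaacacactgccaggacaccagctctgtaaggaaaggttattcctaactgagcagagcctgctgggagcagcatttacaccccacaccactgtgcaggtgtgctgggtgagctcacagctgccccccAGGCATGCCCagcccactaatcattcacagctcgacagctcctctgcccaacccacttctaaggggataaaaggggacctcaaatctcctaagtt
Krt12: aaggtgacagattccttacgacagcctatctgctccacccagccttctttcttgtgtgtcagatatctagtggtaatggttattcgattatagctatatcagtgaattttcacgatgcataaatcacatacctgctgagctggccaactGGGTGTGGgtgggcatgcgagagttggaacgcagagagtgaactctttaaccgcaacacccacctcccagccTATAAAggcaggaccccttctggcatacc
The 5 motifs searched on both strands were the TATA box TATAAA, the AP-2 palindrome GCCNNNGGC, the Kruppel-type box CCNCNCCC, the ETS core AGGAAG and the half-site of the p53 family, to which p63 belongs. In Krt5 the capitals mark 1 match to the p53-family half-site, AGGCATGCCC, starting 95 bases before the start. In Krt12 they mark a Kruppel-type box on the opposite strand, GGGTGTGG, starting 101 bases before the start, and a TATA box starting 29 bases before it. Neither window held a match to the AP-2 palindrome or the ETS core, and none of the matches overlap. Of 32841 mouse windows of the same length, 7.13% held the half-site, 45.9% the Kruppel-type box, 12.4% the TATA box, 13.7% the AP-2 palindrome and 29.5% the ETS core. A match describes the letters only, and no binding was measured here.

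The basal keratin genes carried most of the reads of the 5 keratins. Krt5 (ENSMUSG00000061527, chromosome 15, 101707070 to 101712898 of GRCm38, minus strand) stood at 2745, 3188 and 3028 CPM in wildtype 1 to 3. In the 6 mutant libraries it ran from 2656 to 3360.1 CPM with a median of 2932. The groups overlapped, with mutants 1 and 4 below and mutant 3 above every wildtype library. Its fold of mutant over wildtype was 0.984, with a 95% interval of 0.845 to 1.15 (edgeR adjusted p = 0.904), so the data are compatible with any change inside that interval. The log2 difference was 0.09 above the Gm42418 split (1 wildtype and 5 mutant libraries) and -0.05 below it (2 and 1).

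Krt14 (ENSMUSG00000045545), the usual type I partner of Krt5, had 342, 379 and 400 CPM in the wildtype libraries and from 291 to 365 CPM in the mutant libraries, with a median of 339.9. Of the mutant libraries, 3 lay below every wildtype library and the others within the wildtype range. Its fold was 0.9, with a 95% interval of 0.797 to 1.02 (edgeR adjusted p = 0.209), the lowest fold among these 5 keratins. Krt15 (ENSMUSG00000054146), the alternative basal partner, had 3611, 3855 and 4144 CPM in wildtype and from 3135 to 3853 CPM in mutant libraries, with a median of 3784. Mutants 4 and 6 lay below every wildtype library, and the fold was 0.932 with an interval of 0.795 to 1.09 (edgeR adjusted p = 0.55).

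Krt12 (ENSMUSG00000020912, chromosome 11, 99415666 to 99422259, minus strand), the keratin of corneal differentiation, was already present at birth. It had 184, 241 and 254 CPM in the wildtype libraries and from 199 to 263 CPM in the mutant libraries, with a median of 216. Wildtype 1 was the lowest of all 9 libraries and mutant 4 the highest, and the other mutant libraries fell between the wildtype ones. The fold was 0.99 with a 95% interval of 0.849 to 1.15 (edgeR adjusted p = 0.941). The direction differed by side of the Gm42418 split, at 0.31 on the log2 scale above it and -0.32 below it. Krt19 (ENSMUSG00000020911) had 291, 347 and 349 CPM in wildtype and from 269 to 352 CPM in mutant libraries, with a median of 339. Mutant 4 was the lowest and mutant 2 the highest of all 9 libraries, and the rest overlapped. Its fold was 0.995 with an interval of 0.867 to 1.14 (edgeR adjusted p = 0.966).

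The genes for the type I keratins lie within 1 stretch of chromosome 11, Krt12 at 99415666, Krt15 at 100131758, Krt19 at 100140810 and Krt14 at 100203162. Keratins share stretches of similar sequence, Krt14 with Krt16 and Krt17 and Krt5 with Krt6a among them, so the split of reads between such pairs is uncertain. Krt12 shares 1007 exon bases with A830036E02Rik on the opposite strand. That antisense gene had 60 counts in all against 60505 for Krt12, and without a stated strand setting reads of the pair cannot be told apart.

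Set against Krt5 inside each library, none of the 3 keratin ratios passed the test between the groups. Krt12 gave 75.5 ± 8.44 reads per 1000 reads of Krt5 in wildtype (SD, n = 3) and 76.9 ± 12.6 in mutant libraries (n = 6), a difference of 0.02 in the log2 ratio (exact two-sided permutation over 84 splits, p = 0.929; 0.929 adjusted over the 4 ratios tested). Krt19 gave 110 ± 4.87 and 111 ± 8.74 reads (difference 0.02, exact permutation p = 0.845, adjusted 0.929). Krt14 gave 125 ± 6.58 and 115 ± 8.19 reads (difference -0.13, exact permutation p = 0.107, adjusted 0.214). Such ratios do not depend on how libraries are scaled. The smallest p the 84 splits allow is 0.0119.

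Cdh1 was the exception among these ratios before adjustment. It gave 37.9, 44.4 and 43.7 reads per 1000 reads of Krt5 in wildtype 1 to 3 and 57.6, 45.5, 45.2, 65.5, 48.9 and 51.6 in mutants 1 to 6. All 6 mutant values lay above all 3 wildtype values, with mutants 2 and 3 closest to them. The log2 ratio was 0.31 higher in the mutant (exact two-sided permutation p = 0.0357, adjusted over the 4 ratios 0.143). With any wildtype library or mutant 1, 2, 3 or 6 left out the exact permutation p lay between 0.0536 and 0.143, and without mutant 4 or 5 it was 0.0357. The difference ran from 0.24 without wildtype 1 to 0.35 without wildtype 2. Cdh1 has 4574 bases of exon and Krt5 2197. Their log2 fold changes were 0.28 and -0.02 in the fit reported. With the exon length trend described below removed, they were 0.25 and 0.11, and the ratio was not tested that way.

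All 3 regulators rose from low levels. Klf5 (ENSMUSG00000005148, chromosome 14, 99298691 to 99315036, plus strand) had 39.6, 59.9 and 44.3 CPM in wildtype 1 to 3 and from 55.7 to 80.7 CPM in the mutant libraries, with a median of 63.5. Mutant 5 lay inside the wildtype range and the other 5 mutant libraries above it. Klf5 rose 1.37-fold (log2 0.46, SE 0.132, edgeR adjusted p = 0.0241). It was not called without wildtype 1 (adjusted p = 0.175) or wildtype 3 (adjusted p = 0.107). It was higher in the mutant on both sides of the Gm42418 split on the log2 scale. The difference was 0.70 above it, against wildtype 1 alone, and 0.46 below it, from mutant 2 alone.

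Ehf (ENSMUSG00000012350, chromosome 2, 103263433 to 103303278, minus strand) had 51.8, 61.4 and 54.8 CPM in wildtype and from 66.1 to 78.7 CPM in mutant libraries, with a median of 69.1. Every mutant value exceeded every wildtype value, and mutant 1 stood above the other mutants. Ehf rose 1.26-fold (log2 0.33, SE 0.0863, edgeR adjusted p = 0.0162). The call was lost without wildtype 1 (adjusted p = 0.113) or wildtype 3 (adjusted p = 0.069). The mutant was higher by 0.44 above the Gm42418 split, against wildtype 1 alone, and by 0.24 below it, from mutant 2 alone.

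Trp63 (ENSMUSG00000022510, chromosome 16, 25683763 to 25892102, plus strand) had 72.1, 108 and 83.8 CPM in wildtype 1 to 3 and between 106 and 114 CPM in all mutant libraries, with a median of 112. Wildtype 2 reached the mutant range and the other wildtype libraries lay below it. The spread over libraries was 21.1% of the mean in wildtype and 3.48% in the mutant. Trp63 rose 1.26-fold (log2 0.33, SE 0.102, edgeR adjusted p = 0.0329). The call was lost without wildtype 1 (adjusted p = 0.225, log2 0.21), wildtype 3 (0.13), mutant 3 (0.0638) or mutant 5 (0.053). The difference was 0.63 above the Gm42418 split and 0.16 below it.

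Cdh1 (ENSMUSG00000000303, chromosome 8, 106603351 to 106670246, plus strand) had 104, 142 and 132 CPM in wildtype and from 137 to 174 CPM in mutant libraries, with a median of 150.3. Mutant 2 lay inside the wildtype range and the other 5 above it. Its fold was 1.21 with a 95% interval of 1.05 to 1.4, and it did not pass over all genes (edgeR adjusted p = 0.0574). It passed with DESeq2 (adjusted p = 0.041) and limma-voom (0.037), with no filter on low counts (edgeR, 0.0445), without wildtype 2 (0.0282) and without mutant 2 (0.0443), over a range of 0.0282 to 0.347 in the alternatives. The difference stood at 0.58 above the Gm42418 split and -0.00 below it.

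Aldh3a1 (ENSMUSG00000019102, chromosome 11, 61207537 to 61218421, plus strand) was the gene that fell. It had 199, 210.3 and 164 CPM in wildtype 1 to 3 and from 102 to 168 CPM in mutant libraries, with a median of 136. Mutants 2 and 6 reached the lowest wildtype library and the other 4 lay below it. The log2 fold change was -0.47 (SE 0.132, edgeR adjusted p = 0.023), 1.38-fold lower. The call was lost without wildtype 1 (adjusted p = 0.129), wildtype 2 (0.0957) or mutant 4 (0.0621), and with the Gm42418 split (0.0895) or the log2 share of Gm42418 (0.0968) as a covariate. The log2 difference was -0.60 above and -0.17 below that split.

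**Figure D2:**
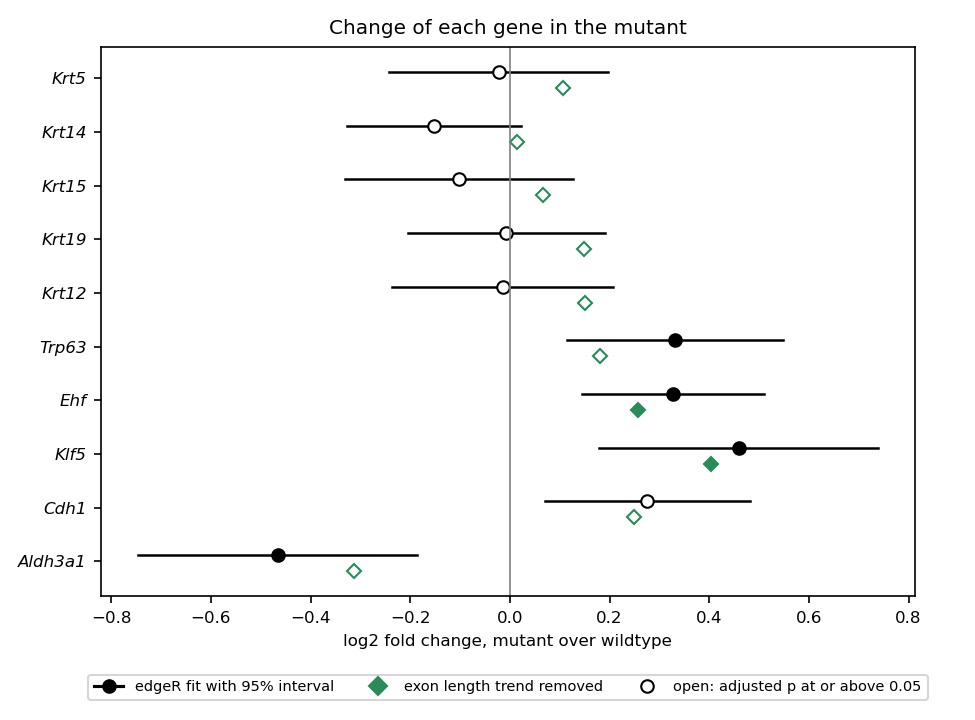
Log2 fold change of mutant over wildtype (horizontal axis) for each gene, with circles and 95% intervals from the edgeR fit and diamonds after a trend on exon length was removed. Filled symbols passed an adjusted p of 0.05: Klf5, Ehf, Trp63 and Aldh3a1 in the fit, and Klf5 and Ehf with the trend removed.

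In these libraries the log2 fold change in the mutant moved with exon length over all genes, and the 10 genes differ in length. The median log2 fold change was -0.24 in the group of tested genes with the shortest exons (up to 2575 bases) and 0.20 in the group with the longest (from 6617 bases), out of 4 groups of equal size. The keratins and Aldh3a1 have between 1758 and 2197 bases of exon and lie in the shortest group. Klf5, Ehf and Cdh1, with 5201, 5576 and 4574 bases, lie in the third, where the median was 0.05, and Trp63, with 8391, in the longest. With a smooth trend on exon length taken out of each library, Klf5 was still higher (log2 0.40, edgeR adjusted p = 0.0349) and so was Ehf (log2 0.26, adjusted p = 0.0383). Trp63 was not called then (log2 0.18, adjusted p = 0.188), nor was Aldh3a1 (log2 -0.31, adjusted p = 0.182) or Cdh1 (log2 0.25, adjusted p = 0.0727). The keratins then stood between 0.01 for Krt14 and 0.15 for Krt12, with none called and 0 at an unadjusted p under 0.05 (edgeR). The part of the length trend in each single gene's change was not tested.

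**Figure D3:**
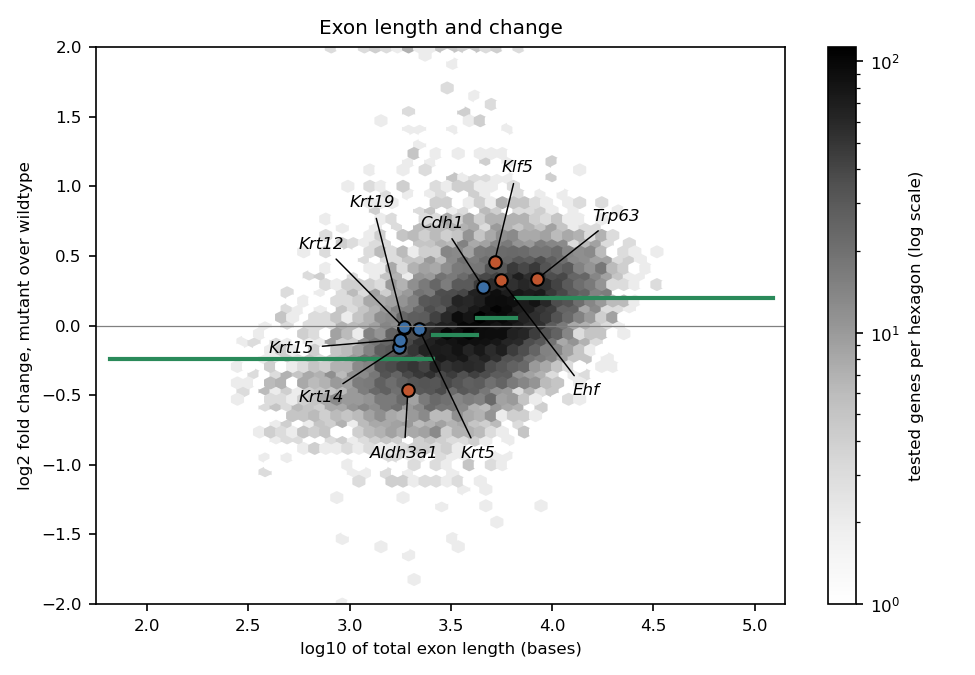
Total exon length (log10 bases, horizontal axis) against the log2 fold change of mutant over wildtype (vertical axis, values beyond 2 drawn at the edge) for tested genes with a known exon length, shaded by number per hexagon. Circles mark the 10 genes, orange where called and blue where not, and green lines give the median of each of 4 equal groups by exon length, rising from -0.24 to 0.20.

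The order of levels, which can be compared between genes only per length, was the same in both groups down to Trp63. In CPM per kilobase of exon, Krt15 led with 2190.3 ± 151 in wildtype (SD, n = 3), then Krt5 with 1359.7 ± 102. Krt14 followed with 212 ± 16.7 and Krt19 with 177 ± 17.9, a pair that overlapped in the mutant at 191 ± 14.1 and 176 ± 16.7. Krt12 had 122 ± 20.2. Aldh3a1 had 98.4 ± 12.4 per kilobase and overlapped Krt12 in wildtype, while in the mutant, at 71.3 ± 13.2 against 121 ± 12.4, it did not. Cdh1 stood at 27.5 ± 4.28 per kilobase. Trp63, Ehf and Klf5, at 10.5 ± 2.21, 10.05 ± 0.874 and 9.21 ± 2.04, could not be ordered beyond their spread in either group. Lengths count all annotated exons of a gene, so the level of a gene with many alternative exons, such as Trp63, may be understated.

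Other genes of this epithelium were grouped by role. Each count from the fit reported is to be read against the 9.7% of all tested genes called higher and 9.47% called lower. Over all tested genes, 940 were higher and 1225 lower with the length trend removed, and 303 and 235 without wildtype 1. Counts from those fits are to be read against these numbers. Of 20 further keratin genes 17 were tested, 2 rose and 1 fell, and the median log2 fold change was 0.12. Krt8, the type II keratin of simple epithelia, fell from 159 ± 2.26 to 118 ± 13.5 CPM, 1.34-fold lower (edgeR adjusted p = 0.00526), and was called under all 12 alternatives run for these lists (each library left out, the length trend removed and Gm42418 covariates). Its partner Krt18 went from 330.3 ± 10.99 to 290.5 ± 20.4 CPM (adjusted p = 0.0987) and is named after its values were seen. With the length trend removed the log2 fold change of Krt18 was 0.02 (edgeR adjusted p = 0.906). Krt78 rose from 3.65 ± 1.28 to 8.66 ± 3.18 CPM (adjusted p = 0.0128) and Krt17, a keratin of stressed and appendage epithelium, from 4.13 ± 1.53 to 7.3 ± 1.69 CPM (adjusted p = 0.0317). Krt4, a keratin of mucosal and conjunctival epithelium, had 7.37 ± 2.54 and 4.48 ± 1.76 CPM (adjusted p = 0.0852). Without wildtype 1 Krt78 and Krt17 were not called (adjusted p = 0.0689 and 0.202), and Krt17 also not without wildtype 3 or mutant 2 or 6. With the length trend removed 4 were called higher and 1 lower, Krt6a and Krt13 being the additions (adjusted p = 0.0456 and 0.0347).

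Among 18 epithelial regulators of transcription and splicing, 2 rose and 0 fell (median log2 fold change 0.21, 15 positive). At an unadjusted edgeR p under 0.05, 5 were higher and 0 lower, against 5383 of all 15825 tested genes in either direction. Esrp1, an epithelial splicing regulator, rose 1.3-fold from 46.9 ± 3.29 to 61.1 ± 3.66 CPM (edgeR adjusted p = 0.00774), with all mutant above all wildtype libraries. Tfap2b, which encodes an AP-2 factor, rose 1.19-fold (adjusted p = 0.0424) but was not called in 9 of the 12 alternatives, those without wildtype 1 or 3, mutant 2, 3, 5 or 6, with the length trend removed or with either Gm42418 covariate. The grainyhead genes Grhl2 and Grhl1 stood at 1.28-fold and 1.19-fold (adjusted p = 0.0722 and 0.102). Without wildtype 1, 0 of this list were called (edgeR; adjusted p = 0.072 for Esrp1), with 1 higher at an unadjusted p under 0.05. The count at an unadjusted p was not made over all tested genes in that fit. With the length trend removed 1 was higher, Esrp1, and 1 lower, Pax6, the eye field regulator, with a log2 fold change of -0.30 (adjusted p = 0.0114) against -0.08 without that step.

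Of 22 junction and desmosome genes, 6 rose and 0 fell (median 0.19 on the log2 scale, 19 positive). At an unadjusted edgeR p under 0.05, 8 were higher and 1 lower, against 5383 of all 15825 tested genes in either direction. Dsg3, a desmosomal cadherin of basal cells, had 68.1, 78.7 and 77.9 CPM in wildtype and from 112 to 141 CPM in mutant libraries. The groups were well apart, and Dsg3 rose 1.66-fold (log2 0.73, SE 0.0894, edgeR adjusted p = 0.000203), a call kept under all 12 alternatives. The tight junction gene Cldn1 rose 1.41-fold (adjusted p = 0.00569), the plakoglobin gene Jup 1.34-fold (0.0113) and the plakophilin gene Pkp1 1.29-fold (0.0202). Dsc2 and Cdh3 also rose, by 1.21-fold and 1.19-fold, and each lost its call in 8 of the 12 alternatives. Without wildtype 1 only Dsg3 of these was called (adjusted p = 0.00351). Pkp1 was also not called without wildtype 3 (0.0603). Cldn1, Jup and Pkp1 were still called with the length trend removed, while Dsc2 and Cdh3 were not (adjusted p = 0.0761 and 0.0598). The general epithelial marker Epcam, named after its values were seen, stood at 9.97 ± 0.949 and 11.01 ± 1.74 CPM (adjusted p = 0.557).

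Of 10 genes that anchor the epithelium to its basement membrane, 4 rose and 1 fell, and the median log2 fold change was 0.31. The laminin gene Lama3 rose 1.64-fold (edgeR adjusted p = 0.00664), the integrin gene Itga6 1.27-fold (0.0207) and Col7a1, for the collagen of anchoring fibrils, 1.36-fold (0.0207). Cd151, a tetraspanin of hemidesmosomes, fell 1.31-fold from 156 ± 18.6 to 119 ± 8.72 CPM (adjusted p = 0.00715). Lama3, Itga6, Col7a1 and Cd151 all lost their calls without wildtype 1, and Itga6 and Col7a1 also without wildtype 3 (adjusted p = 0.0894 and 0.0975). Itga6 was not called with either Gm42418 covariate. With the length trend removed Lama3 was called higher (adjusted p = 0.0105) and Cd151 lower (0.0115), and Itga6 and Col7a1, with 9025 and 10287 bases of exon, were not called.

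Products and barrier genes of the corneal epithelium split as well. Of 20 listed genes 17 were tested, and 2 rose and 1 fell (median log2 fold change 0.17). Tkt, which encodes the abundant corneal enzyme transketolase, fell from 1108 ± 73.3 to 834 ± 47.7 CPM, 1.33-fold lower (edgeR adjusted p = 0.00471), and was called under all 12 alternatives. Psca rose from 8.6 ± 2.72 to 20.2 ± 7.2 CPM (adjusted p = 0.0096) and the clusterin gene Clu 1.25-fold (0.0266). Ptgs1 stood at 1.22-fold (adjusted p = 0.0512). Psca and Clu were not called without wildtype 1, nor Clu without mutant 3. With the length trend removed 5 were called higher, with Aqp3, Tgm1 and Ptgs1 added, and 1 lower. Of 12 limbal and progenitor genes 10 were tested, 2 rose and 1 fell, with a median of 0.09. Abcg2 rose 1.36-fold (adjusted p = 0.00803) and the integrin gene Itga9 1.27-fold (0.0233), and neither was called with the length trend removed (0.0715 and 0.138), nor Itga9 without wildtype 1 (0.161). Tnfrsf19 fell 1.15-fold (adjusted p = 0.0497), a call lost in 9 of the 12 alternatives, those without wildtype 1 or 3 or mutant 1, 2, 3, 5 or 6 and both Gm42418 covariates, and Gpha2, a limbal hormone subunit gene, had 93.6 ± 14.9 and 62.5 ± 18.5 CPM (0.0565).

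**Figure D4:**
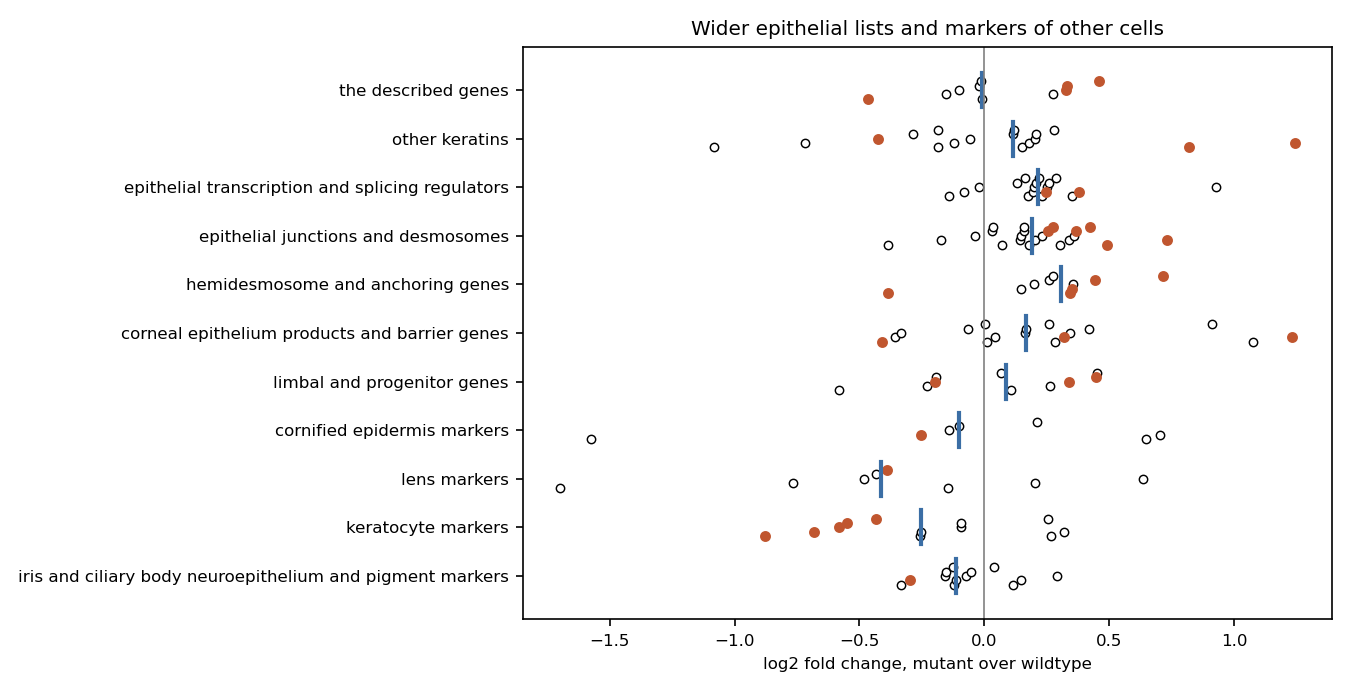
Log2 fold change of mutant over wildtype (horizontal axis) for tested genes of each list, orange where the adjusted p was under 0.05 and open where not, with the list median as a blue line; the goblet cell list, with 1 tested gene, is not drawn. The epithelial junction and anchoring lists have medians of 0.19 and 0.31, the keratocyte and lens lists -0.26 and -0.41. These values carry the exon length trend, and list medians with that trend removed were not computed.

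Markers of other cells in the dissection are given beside these results, and their part in them was not tested. Of 9 goblet cell markers Muc5ac, Tff1 and Tff3 had 0 counts in all libraries, 1 was tested, Fcgbp (adjusted p = 0.0922), and the list summed to between 0.375 and 0.683 CPM in wildtype and between 0.76 and 1.57 CPM in mutant libraries. Of 12 cornified epidermis markers 11 were in the table and 7 tested, with 0 higher and 1 lower, Calml3 (adjusted p = 0.0431, lost in 9 of 12 alternatives). Krt2 of that list had 0 counts in all libraries, and the list summed to between 369.9 and 412 CPM in wildtype and between 284 and 368 CPM in mutant libraries. Lens markers summed to between 257 and 262 CPM in wildtype and between 209.9 and 233 CPM in mutant libraries, with 0 of 8 tested higher and 1 lower, Bfsp2 (adjusted p = 0.00958, and 0.174 with the length trend removed). Of 12 keratocyte markers 0 rose and 5 fell, Kera, Lum, Dcn, B3gnt7 and Chst5 (Chst5 not with either Gm42418 covariate, Dcn not without wildtype 2), and the list's sum ran from 8188 to 10637 CPM in wildtype and from 5950.4 to 8103 CPM in mutant libraries. Of 13 iris, ciliary body and pigment markers 0 rose and 1 fell, Rlbp1 (adjusted p = 0.0259, lost in 5 of 12 alternatives), with sums of 16120.2 to 16929 and 14329 to 16074 CPM. Without wildtype 1, 0 of the epidermis, lens and pigment markers and 1 of the keratocyte markers, B3gnt7, were called (edgeR), while 2, 3, 1 and 5 of these lists had an unadjusted p under 0.05. No count at an unadjusted p was made over all tested genes in that fit.

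The genes whose log2 CPM followed Krt5 most closely over the 9 libraries, among 13278 compared, were Nyap1, Grb2, Lypd3, D2hgdh and Btbd2, with Pearson correlations from 0.93 down to 0.87. Those most like Krt12 were Dis3, AI593442, Abcg3, Sox5 and Diras2, from 0.96 down to 0.91. With the group means taken off these correlations were between 0.88 and 0.94 for Krt5 and between 0.93 and 0.96 for Krt12. They are descriptions chosen as the highest of many, over libraries that differ in depth and carry the length trend.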

How the data were processed

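The authors deposited whole-number read counts for each Ensembl gene and pooled sample, without normalization. The submitters' processing notes list the tools STAR (2.6.1), HTSeq (0.6.1) and DESeq2 (1.6.3) and the build GRCm38 with no roles; the annotation release and the strand of counting were not given in the sources used here. Symbols, positions and exon lengths came from GENCODE of GRCm38, which held 34490 of 35275 identifiers.

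Genotype was tested over all 9 libraries with edgeR 4.0.16 in R 4.3.3: TMM scaling, default filter on low counts, robust quasi-likelihood fit, Benjamini-Hochberg adjustment over 15825 genes at 0.05. CPM uses TMM library sizes, and intervals are 95% from that fit. Ratios (1 count added) were tested by exact permutation. The scripts were tested on simulated data. Alternatives used DESeq2 1.42.0, limma 3.58.1, other scaling and filters, an exon length trend (mgcv 1.9.3), Gm42418 covariates, a replicate block and leaving out each library; the 1% split and the Gm42418 covariates for the lists were added after seeing the data.

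The 10 genes and all lists were chosen with earlier results of these data known. Named genes were the 10, up to 4 of each list with the lowest p, and the 5 most correlated with Krt5 and with Krt12; other genes named to complete a count were chosen after their values were seen. 1 listed gene is counted in its list but not reported here by name. All pairs of libraries differed beyond sampling noise (chi-square over genes), so each counted as 1 replicate.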

Additional observations from a re-analysis of the deposited data

Results flagged for a closer look

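Ehf in mutant 1, at 78.7 CPM, stood apart from the other mutant libraries, which lay between 66.1 and 70.3 CPM. Its gap to the nearest of them was 0.662 of the group's whole range, above the critical value for 6 samples. Chance flags about 1 in 20 such groups, and 10 genes and 4 ratios were looked at. Without mutant 1 the log2 fold change of Ehf was 0.29 (edgeR adjusted p = 0.024).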

How the results depend on the processing

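The cause of each change below was not tested. The 10 genes gave 3 called higher and 1 lower in the fit reported. With each library left out in turn these counts ran from 0 to 4 and from 0 to 1, and the count of lower genes was 0 with the length trend removed, with the log2 share of Gm42418 as a covariate and with the 1% split. No called gene among the 10 reversed in these alternatives. Over all tested genes 1535 were higher and 1499 lower. Leaving out each library gave 303 to 1688 higher and 235 to 1577 lower, limma-voom 2359 and 2328, the log2 Gm42418 share 794 and 832, the Gm42418 split 938 and 939, and the length trend removed 940 and 1225. The Cdh1 to Krt5 log2 ratio took values of 0.24 to 0.35 with single libraries left out (exact p from 0.0357 to 0.143). The replicate numbers in the titles did not pair the samples, with correlations of deviations of 0.09, 0.03 and -0.10 for numbers 1 to 3, and wildtype 1, 2 and 3 correlated best with mutants 1, 4 and 5. With a replicate block 814 genes were higher and 671 lower, Trp63 was not called (adjusted p = 0.0838), and the Cdh1 to Krt5 ratio over the 3 pairs was 0.23 (exact p = 0.25, the smallest that 3 pairs allow). Mutant libraries with no wildtype library of the same number added nothing to the genotype difference in that block. It thus rested on numbers 1 to 3 of each group. The ratios of Krt12, Krt14 and Krt19 to Krt5 had a p above 0.05 in all 12 alternatives each, of which the 3 pairs could not have gone below it.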

Other observations

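With the group means taken off, the 10 genes were compared over the 9 libraries, as values with no test. Krt5, Krt14, Krt15 and Krt19 had pairwise Pearson correlations of log2 CPM between 0.46 (Krt5 and Krt15) and 0.88 (Krt14 and Krt19). Trp63, Ehf, Klf5 and Cdh1 had correlations between 0.41 (Ehf and Klf5) and 0.79 (Trp63 and Cdh1). Between these sets the values reached 0.47 (Krt5 and Trp63), above the lowest inside either set, with 0.37 for Krt19 and Ehf and 0.34 for Krt19 and Trp63. Krt12 did not follow the other keratins, with correlations of -0.04 with Krt19 to 0.06 with Krt15, and stood at 0.90 with Cdh1 and 0.61 with Trp63. Krt14 and Klf5 had a correlation of -0.31, and Aldh3a1 and Krt12 one of -0.54. The libraries differ in depth and carry the exon length trend, and the first set has shorter exons than the second.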
